A study of Mus musculus with 16 samples.

Results

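RNA from aortic valves was compared between mice that carry both a hypercholesterolaemia and a hypertension model (HC/HT) and control mice (CON), across all genes of the deposited table. The members are the 7 libraries whose labels and column names give these groups, 3 HC/HT and 4 CON, of 16 samples in the series. HC/HT mice lack ApoE and overexpress human renin and human angiotensinogen. CON mice carry neither change, and all groups are on the C57BL/6J background. The series also holds 4 libraries of the ApoE knockout alone (HC) and 4 of the renin and angiotensinogen transgenes alone (HT), which share the estimate of the spread here. HC/HT holds 2 females and 1 male (replicate 1), and CON 1 female (replicate 2) and 3 males. Planned groups were 4 mice each. The column of values without a name was left out, and HC/HT replicate 4 is not analysed here. Age, diet, the promoters of the transgenes and blood pressure are not stated in the labels or the design text.

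The aortic valve is a thin leaflet of interstitial cells in collagen, proteoglycan and elastin, covered by endothelium and seeded with resident macrophages. Without ApoE, lipoprotein remnants are cleared poorly and arterial and valve macrophages take up lipid and become foam cells, which are rich in lysosomes and in cholesterol exporters. Renin and angiotensinogen together produce angiotensin II, which raises blood pressure and acts on vascular and interstitial cells. Contractile genes in the root and leaflets belong to smooth muscle and to activated interstitial cells, called myofibroblasts. Valve tissue also adjoins the myocardium and holds blood, so both can enter a dissected sample.

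Values are the authors' normalised counts times 1 common factor that sets the median library total to 1000000, called units below. Library totals lay between 10207928 and 10210305 before that factor, so the sequencing depth of each library is unknown. Between 16006 and 17608 genes were above 0 per library. The 4 most abundant rows, which include the ribosomal RNA precursor RN45S, took 45.3%, 53.0% and 54.3% of the total in HC/HT valves and 37.0%, 32.4%, 39.3% and 57.8% in CON valves. The means were 50.9 ± 4.87% in HC/HT and 41.6 ± 11.2% in CON (SD, exact permutation test, two-sided, p = 0.229). With so few libraries this test cannot go below 0.0571, so it does not show that the shares were alike. Every HC/HT library lay above CON replicates 1 to 3 and below CON replicate 4. CON replicate 4 stood apart from the other CON libraries in this share and in blood cell genes, with erythroid markers summing to 7179 units against 181 to 697 in CON replicates 1 to 3. Valve interstitial markers were detected in all 7 libraries, with 16 of 16 members tested and sums of 7568 to 10010 units in HC/HT and 7702 to 20500 in CON. In bulk tissue, fewer cells of a type and less RNA per cell cannot be told apart.

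Apoe, whose product carries lipoproteins to their receptors, is the deleted gene and was far lower in every HC/HT library than in any CON library, though not at 0. It stood at 9.80, 7.54 and 5.98 units in HC/HT and at 1012, 1014, 620 and 398.0 units in CON. The groups did not overlap, and the log2 difference of the means was -6.36 (exact permutation test, two-sided, p = 0.0571, which 3 against 4 libraries cannot go below). A further 8 rows that passed as lower averaged under 1 unit both in HC/HT and in HC, whose mice lack ApoE too, a grouping made after their values were seen. They were Gm3893, 4930578G10Rik, DQ540451, DQ687153, AK029949, AK039360, AK041157 and AK048672. The most abundant in CON was the unannotated transcript AK041157, at 0.914 ± 0.735 units in HC/HT and 52.9 ± 17.4 in CON. HC libraries held 0.759 units of it on average, and HT libraries 35.4. Agt, the mouse angiotensinogen gene, was listed at 0 in all 3 HC/HT libraries and in 3 of 4 CON libraries, and was not tested.

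In HC/HT valves 22 genes were higher and 48 lower than in CON valves. The higher genes included lysosomal and lipid-handling genes of macrophages, Cd5l, Gpnmb, Atp6v0d2, Acp5, Trem2 and Abcg1. Cd5l had the largest difference, while Pdgfb, Tspan8 and Cxcl1 had larger ones than Acp5, Trem2 and Abcg1. Beside Apoe, the lower genes included the resident macrophage markers Lyve1 and Timd4, the contractile genes Mylk and Pcp4l1 and the cardiac transcription factor Tbx5. Igfbp5, which binds insulin-like growth factors, and the matrix gene Ecm2 were lower too. Log2 differences ran from 1.75 to 3.98 among the higher genes and from -1.62 to -6.57 among the lower.

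Of 15004 genes tested with limma, 0.147% passed as higher and 0.32% as lower at a Benjamini-Hochberg adjusted p under 0.05. HC/HT and CON libraries did not overlap in 68 of the 70, against 10.6% of all genes tested, 2.89% higher and 7.66% lower. The exceptions were Tmem100 and Tspan8. The 70 were called on these same libraries, so this separation is no independent support for the calls. At an unadjusted p under 0.05, 2.99% of all genes were higher and 8.4% lower. The median difference of all genes was -0.20, and 33.2% of genes had a positive difference. The split between higher and lower depends on the scaling: with median-of-ratios factors, which bring the median of all genes to -0.02, it was 59 higher and 50 lower. With quantile normalisation it was 59 and 47, and with the 4 most abundant rows left out of the scaling 63 and 40. All 70 genes kept their sign in each alternative that tested them, and the filter at 5 units left some of them out.

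Single libraries moved these counts. The calls became 1 higher and 11 lower without HC/HT replicate 1 (the male of its group) and 5 higher and 9 lower without HC/HT replicate 2. Without HC/HT replicate 3 they were 50 higher and 93 lower. Leaving out CON replicate 2 (the female of its group) gave 2 higher and 5 lower. The numbers were 10 and 20 without CON replicate 1, 8 and 16 without CON replicate 3, and 15 and 67 without CON replicate 4. Without CON replicate 2 the genes still called were Cd5l and Abcg1 as higher and Apoe, AK041157, AK039360, AK048672 and Lyve1 as lower.

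Macrophage genes tied to lipid loading and lysosomes were the best represented group among the higher genes. Of 30 genes of a foam cell and lysosome list, 25 had positive differences, 5 passed as higher and 0 as lower, and their median difference was 0.86, against -0.20 over all genes. Positive differences were held by 33.2% of all genes tested, and 0.147% passed as higher. This list was chosen with earlier results of these data known. Cd5l, on chromosome 3 from 87357881 to 87371074 in mm10, encodes a secreted protein that keeps lipid-laden macrophages alive. It stood at 25.4, 32.3 and 32.7 units in HC/HT and at 1.96, 0, 1.37 and 1.37 units in CON. Every HC/HT library was far above every CON library, and the log2 difference was 3.98 ± 0.46 (SE) with a limma adjusted p of 1.47e-05. Cd5l passed in all 19 alternatives run for single genes.

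Gpnmb, a lysosomal glycoprotein, stood at 437, 237 and 413 units in HC/HT and at 82.8, 42.0, 43.9 and 28.2 units in CON. The groups did not overlap, with CON replicate 1 the highest of its group, and the log2 difference was 2.92 ± 0.49 (adjusted p 0.00837). Atp6v0d2, a subunit of the proton pump that acidifies lysosomes, held 52.5, 28.9 and 63.2 units in HC/HT and 1.96, 4.31, 5.98 and 1.86 units in CON. Acp5, a lysosomal acid phosphatase, held 11.4, 18.5 and 8.42 units in HC/HT and 0.882, 1.18, 2.16 and 0.588 units in CON. Both were low in every CON library, with log2 differences of 3.24 ± 0.60 and 2.47 ± 0.50 (adjusted p 0.0256 and 0.0238). Trem2, a receptor for lipids on macrophages, stood at 36.5, 47.8 and 19.5 units in HC/HT and at 9.70, 4.31, 4.21 and 3.23 units in CON. HC/HT replicate 3 was the lowest of its group and still above every CON library, and the log2 difference was 2.43 ± 0.47 (adjusted p 0.012). All 4 of these calls ended without HC/HT replicate 1 and without CON replicate 2. Those of Acp5 and Trem2 also ended without HC/HT replicate 2, and that of Atp6v0d2 without CON replicate 1 or 4. The largest adjusted p over these omissions was 0.153 for Gpnmb, 0.231 for Atp6v0d2, 0.211 for Acp5 and 0.203 for Trem2.

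**Figure D1:**
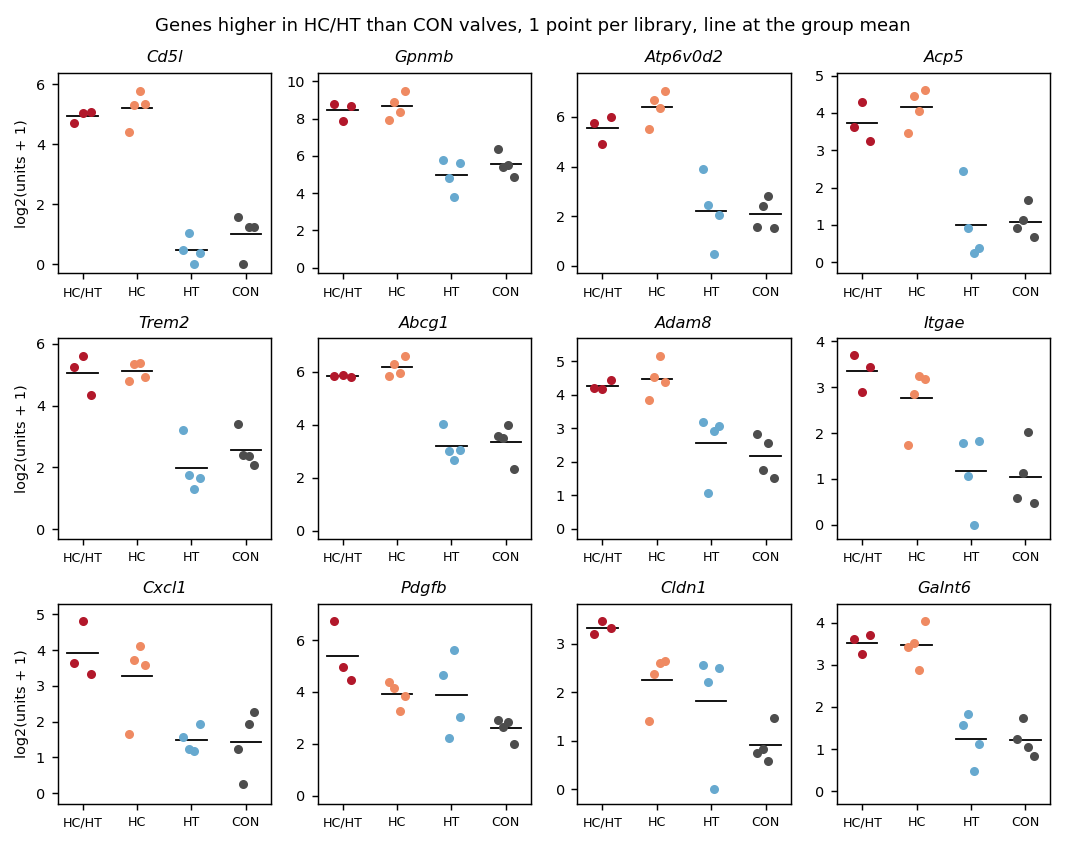
Level of 12 genes that passed as higher in HC/HT than CON valves, as log2(units + 1) with 1 point per library and a line at the group mean, for HC/HT (3 libraries), HC, HT and CON (4 each). Cd5l lay at 25.4 to 32.7 units in HC/HT and at 0 to 1.96 units in CON. Its mean was 30.1 units in HC/HT, 38.3 in HC, 0.441 in HT and 1.18 in CON.

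The largest difference of the list did not pass. Spp1, which encodes osteopontin, a secreted glycoprotein of macrophages and of mineralising tissue, stood at 344, 381 and 238 units in HC/HT and at 4.90, 23.7, 1.76 and 2.06 units in CON (log2 difference 5.45 ± 1.04, adjusted p 0.0586). Lgals3, which encodes galectin 3, had a difference of 2.87 (adjusted p 0.0586), and Mmp12, the macrophage elastase, 2.03 (adjusted p 0.0946). In all 3 genes the lowest HC/HT library lay above the highest CON library.

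Of the cholesterol exporters Abcg1 and Abca1, Abcg1 passed on the deposited scale, and the call of Abca1 depended on the scaling. Abcg1, on chromosome 17 from 31057694 to 31117984, exports cholesterol to high-density lipoprotein and is a target of the liver X receptors. It stood at 56.6, 57.7 and 55.4 units in HC/HT and at 10.9, 10.3, 15.1 and 4.02 units in CON. The 3 HC/HT libraries lay close together (SD 1.13 units) and far above CON, with a log2 difference of 2.40 ± 0.40 (adjusted p 0.00308). Its call ended without HC/HT replicate 1, at an adjusted p of 0.0885. Abca1 had a difference of 1.26 (adjusted p 0.131), with 191, 154 and 202 units in HC/HT and 88.2, 78.1, 88.5 and 48.1 units in CON. It passed in limma with median-of-ratios factors (adjusted p 0.0277), quantile normalisation (0.0204), the scaling without the 4 most abundant rows (0.0213) and array weights (0.0281), and its adjusted p lay between 0.0651 and 0.419 in the other alternatives. Of 16 lipid efflux genes tested, Abcg1 was called higher and Apoe lower, and the median was near 0, at 0.04.

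General macrophage markers did not pass. Of 27 macrophage genes tested, 24 had positive differences with a median of 0.93, and 0 passed with limma in either direction. Among all genes tested 33.2% were positive, with a median of -0.20. An unadjusted p under 0.05 was held by 8, all higher, against 2.99% of all genes tested as higher. Cd68, a lysosomal membrane protein of macrophages, stood at 77.0, 98.7 and 107 units in HC/HT and at 45.2, 26.6, 35.0 and 29.0 units in CON (1.41 ± 0.44, adjusted p 0.176). Clec7a, a receptor for fungal sugars, had a difference of 1.75 (adjusted p 0.182). Their HC/HT and CON libraries did not overlap, as in 14 of the 27 genes, all higher, against 2.89% of all genes tested as higher. The summed level of the list ran from 2578 to 3902 units in HC/HT and from 1238 to 1829 in CON.

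Among secreted inflammatory genes, Cxcl1, an attractant of neutrophils, stood at 11.4, 27.2 and 9.11 units in HC/HT and at 1.37, 0.196, 2.84 and 3.82 units in CON. HC/HT replicate 2 was the highest, the groups did not overlap, and the log2 difference was 2.69 ± 0.56 (adjusted p 0.029). Of 26 chemokine and cytokine genes tested, 20 had positive differences with a median of 0.89, and Cxcl1 alone passed. Positive differences were held by 33.2% of all genes tested, with a median of -0.20. Ccl2, an attractant of monocytes, held 90.6, 44.1 and 14.8 units in HC/HT and 13.5, 5.49, 7.05 and 3.43 units in CON (2.46 ± 0.83, adjusted p 0.28). The interleukin 1 antagonist Il1rn had a difference of 2.24 (adjusted p 0.143), and Cxcl2 of 1.94 (adjusted p 0.0946). Adam8, a membrane protease of leukocytes, stood at 17.5, 17.0 and 20.6 units in HC/HT and at 6.17, 2.35, 4.90 and 1.86 units in CON (2.28 ± 0.48, adjusted p 0.0328). It was the 1 gene to pass among 18 tested from a list of matrix metalloproteinases and related proteases.

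Itgae, an integrin of T cells and dendritic cells in epithelia, held 12.0, 6.46 and 9.89 units in HC/HT and 0.490, 1.18, 3.04 and 0.392 units in CON (2.28 ± 0.53, adjusted p 0.0472). It was the 1 gene of 17 tested T and NK cell markers to pass. The mean log2 level of that list was 1.76, 2.41 and 2.76 in HC/HT and 1.52, 1.44, 1.48 and 2.40 in CON, so that CON replicate 4 lay at the level of HC/HT replicate 2. Other immune genes that rose were Pirb, an inhibitory receptor of myeloid cells (1.75), Dpep2, a dipeptidase that cleaves leukotrienes (2.19), and Tnfrsf26, a member of the tumour necrosis factor receptor family (2.08). Pirb stood at 51.3, 58.6 and 46.8 units in HC/HT and at 17.2, 10.3, 20.9 and 14.5 units in CON (adjusted p 0.0467). The calls of Cxcl1, Adam8, Itgae, Pirb, Dpep2 and Tnfrsf26 all ended without HC/HT replicate 1, without HC/HT replicate 2 and without CON replicate 2. Each also ended without at least 1 of CON replicates 1 and 3, and those of Itgae, Pirb and Dpep2 without CON replicate 4. Itgae in addition ended without HC/HT replicate 3. Their largest adjusted p over the omissions lay between 0.197 for Adam8 and 0.373 for Dpep2.

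Lyve1 and Timd4, markers of resident macrophages, fell in the same valves. Of 14 resident macrophage genes, 12 had negative differences, 2 passed as lower and 0 as higher, and the median was -1.61. Among all 15004 genes tested 10018 were negative, with a median of -0.20, and 0.32% passed as lower. The list was low in HT valves too, with a median of -1.44 for HT minus CON and 0.27 for HC/HT minus HT. For HC minus CON the median was -0.525. Lyve1, on chromosome 7 from 110850607 to 110862953, encodes a hyaluronan receptor of resident macrophages around vessels and of lymphatic endothelium. It stood at 0.392, 0.980 and 1.76 units in HC/HT and at 29.5, 33.5, 43.7 and 54.0 units in CON. Lyve1 was near 0 in every HC/HT library, with a log2 difference of -4.50 ± 0.61 (adjusted p 0.00129). Its call ended without HC/HT replicate 1, at an adjusted p of 0.0501. Timd4, a receptor by which resident macrophages take up dying cells, held 0, 1.18 and 0.490 units in HC/HT and 2.65, 6.07, 4.90 and 5.39 units in CON (-2.10 ± 0.47, adjusted p 0.0416). It ended without any 1 of the 3 HC/HT libraries and without CON replicate 2, 3 or 4, with an adjusted p of up to 0.282.

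Other resident macrophage genes did not pass. Cd163, the scavenger receptor for haemoglobin, stood at 1.37, 3.04 and 0.196 units in HC/HT and at 11.9, 9.70, 8.23 and 8.62 units in CON (-2.18, adjusted p 0.138). F13a1, a coagulation factor subunit made by macrophages, held 11.2, 30.9 and 12.6 units in HC/HT and 62.9, 45.4, 94.1 and 111 units in CON (-2.19, adjusted p 0.164). Neither gene overlapped between the groups, as in 7 of the 14 genes, all lower, against 7.66% of all genes tested as lower. Lyve1 is also on a list of 9 tested lymphatic endothelial genes, of which it alone passed. Prox1, the transcription factor that specifies lymphatic endothelium, stood at 24.2, 25.4 and 81.1 units in HC/HT and at 65.3, 99.7, 80.0 and 47.1 units in CON, which overlap (-1.20, adjusted p 0.392).

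**Figure D2:**
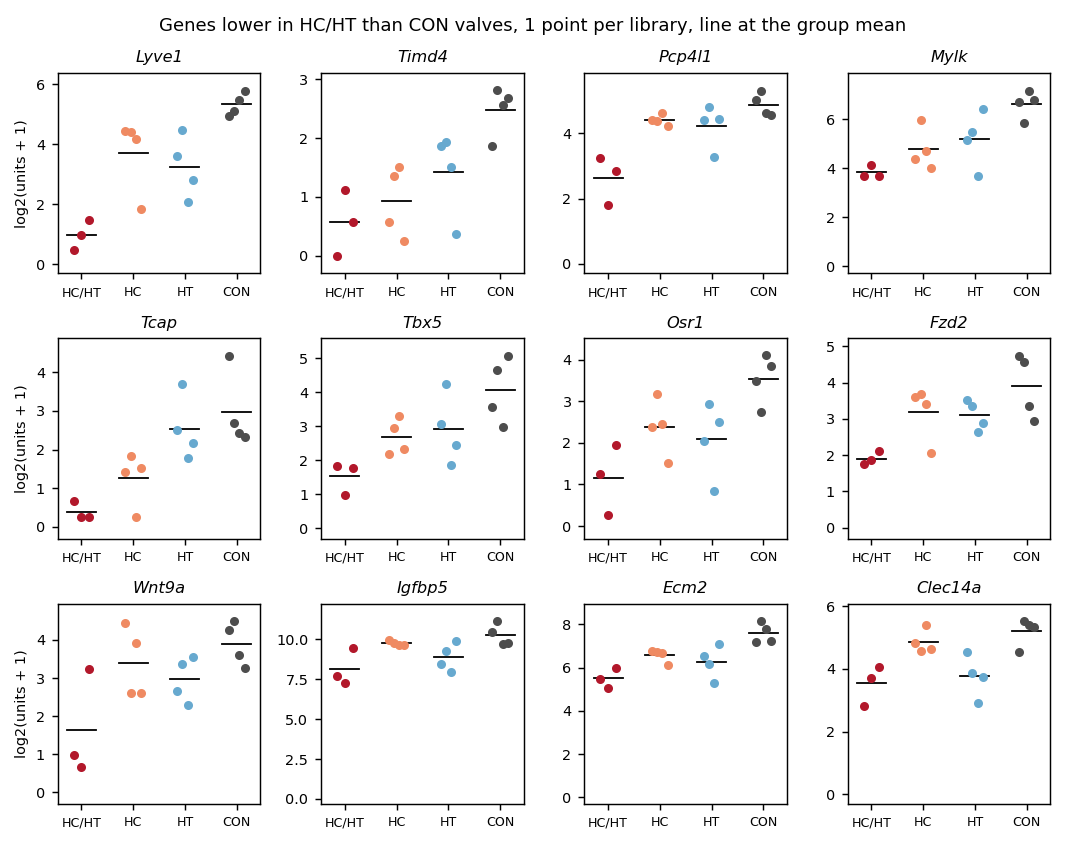
Level of 12 genes that passed as lower in HC/HT than CON valves, as log2(units + 1) with 1 point per library and a line at the group mean, for HC/HT (3 libraries), HC, HT and CON (4 each). Lyve1 lay at 0.392 to 1.76 units in HC/HT and at 29.5 to 54.0 units in CON. The HC and HT means lay between the HC/HT and CON means in each panel.

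The contractile genes Mylk and Pcp4l1 fell in HC/HT valves. Of 29 contractile and smooth muscle genes, 27 had negative differences, 2 passed as lower and 0 as higher, and the median was -1.75. Over all 15004 genes tested, 10018 had negative differences, 0.32% passed as lower and the median was -0.20. Pcp4l1, a small protein expressed in smooth muscle, stood at 8.42, 2.45 and 6.17 units in HC/HT and at 31.4, 38.9, 23.9 and 22.5 units in CON. The highest HC/HT library, at 8.42 units, lay below the lowest CON library, at 22.5 units, with a log2 difference of -2.34 ± 0.41 (adjusted p 0.00701). Its call ended without HC/HT replicate 2 or CON replicate 2, with an adjusted p of up to 0.107. Mylk, the kinase that phosphorylates myosin light chain, stood at 12.0, 16.7 and 12.0 units in HC/HT and at 104, 57.2, 144 and 112 units in CON (-2.59 ± 0.53, adjusted p 0.0416). The groups were far apart, but leaving out any 1 of the 7 libraries ended its call, with an adjusted p of up to 0.290.

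Myl9, the regulatory light chain that Mylk phosphorylates, had the lowest difference of the list but did not pass. It stood at 7.25, 5.68 and 2.65 units in HC/HT and at 174, 74.5, 229.6 and 109 units in CON (-4.27 ± 0.85, adjusted p 0.0644). Myocd, the coactivator of serum response factor that switches on contractile genes, held 0.196, 0.784 and 0.882 units in HC/HT and 13.9, 3.92, 23.7 and 2.25 units in CON (-2.30, adjusted p 0.182). Acta2, smooth muscle actin, stood at 54.3, 83.2 and 27.2 units in HC/HT and at 747, 261, 898 and 21.0 units in CON (-2.26, adjusted p 0.603). CON replicate 4 lay below all HC/HT libraries in Acta2. The mean log2 level of the list was 4.06, 3.47 and 3.57 in HC/HT and 6.08, 5.12, 6.12 and 4.07 in CON, with CON replicate 4 next to HC/HT replicate 1.

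The promoter of Myl9 is shown because this gene had the lowest difference of the list and holds a CArG box, the site of serum response factor. The window covers 250 bases before to 50 bases after the start in RefSeq's GRCm38.p6 annotation, chr2:156775214-156775513 on the plus strand, with the box in capitals from position -161.
Myl9: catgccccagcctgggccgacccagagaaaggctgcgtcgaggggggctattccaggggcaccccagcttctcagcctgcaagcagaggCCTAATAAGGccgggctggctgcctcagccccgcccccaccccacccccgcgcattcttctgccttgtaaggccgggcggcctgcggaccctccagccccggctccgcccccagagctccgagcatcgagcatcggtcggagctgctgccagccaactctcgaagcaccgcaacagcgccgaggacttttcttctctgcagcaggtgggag
Of the 24 contractile genes with a promoter in the table, 4 held a CArG box on either strand (Cnn2, Myl9, Vcl and Srf), which is 16.7%, against 1.57% of 27025 promoters. The promoters of Mylk and Pcp4l1 are not among the 4. A match is a description of letters, and no binding was measured.

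Among cardiac muscle markers Tcap fell. Tcap, a protein of the sarcomere's Z disc, stood at 0.588, 0.196 and 0.196 units in HC/HT and at 20.6, 5.49, 4.41 and 4.02 units in CON (-2.58 ± 0.55, adjusted p 0.0328). It was the 1 gene to pass of 24 cardiomyocyte markers, of which 23 had negative differences, with a median of -2.18. Negative differences were held by 10018 of all 15004 genes tested, with a median of -0.20, and 0.32% passed as lower. The summed level of these markers ran from 328 to 552 units in HC/HT and from 865 to 4677 in CON, highest in CON replicate 1. Myh6, the cardiac myosin heavy chain, stood at 22.0, 28.9 and 7.54 units in HC/HT and at 382, 44.6, 154 and 63.4 units in CON. None of the 24 was at 0 in all 3 HC/HT libraries, while Actn2, Casq2 and Myh7 were each at 0 in 1 of them. Casq2 is on the contractile list too. The part that adjoining heart muscle may have in the lower contractile and cardiac genes was not tested. The call of Tcap ended without HC/HT replicate 1 or 2 or CON replicate 1 or 2, with an adjusted p of up to 0.153.

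Genes of cholesterol synthesis and uptake were high in part of the HC/HT valves, and 0 of 24 passed in either direction with limma, while 14 had an unadjusted p under 0.05. Those 14 were all higher, against 2.99% of all genes tested as higher. The median difference of the 24 was 1.40, against -0.20 over all genes tested. Positive differences were held by 23 of the 24 and by 33.2% of all genes tested. The mean log2 level of the list was 5.10, 4.47 and 3.00 in HC/HT and 3.44, 3.32, 3.21 and 2.45 in CON. HC/HT replicates 1 and 2 stood above every CON library, while HC/HT replicate 3 lay within the CON range. Without HC/HT replicate 1 the median was 0.68, and without HC/HT replicate 3 it was 1.91.

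Sc4mol, the sterol methyl oxidase also called Msmo1, had the smallest p of the list, with 73.3, 47.3 and 16.6 units in HC/HT and 16.9, 9.31, 17.2 and 12.1 units in CON (1.70 ± 0.43, adjusted p 0.0712). Hmgcs1, a synthase early in the pathway, held 120.5, 70.3 and 18.8 units in HC/HT and 32.5, 21.1, 21.1 and 7.84 units in CON (1.64 ± 0.58, adjusted p 0.276). HC/HT replicate 1 was the highest library in both genes, and HC/HT replicate 3 lay within the range of CON in both.

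The promoter of Hmgcs1 is shown as an example of the sterol regulatory element core, the letters TCACCCC, to which the factors that switch on these genes bind. The window is chr13:119690101-119690400 on the plus strand in RefSeq's GRCm38.p6 annotation, with the match in capitals from position -137 from the start.
Hmgcs1: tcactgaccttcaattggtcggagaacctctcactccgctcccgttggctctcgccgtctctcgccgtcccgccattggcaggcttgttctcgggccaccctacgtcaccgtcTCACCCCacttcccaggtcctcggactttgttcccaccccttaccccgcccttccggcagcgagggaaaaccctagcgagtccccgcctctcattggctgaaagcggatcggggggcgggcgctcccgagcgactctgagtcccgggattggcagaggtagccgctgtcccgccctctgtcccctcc
These letters occurred on either strand in 2 of 17 list members with a promoter in the table (Hmgcs1 and Srebf2), which is 11.8%, against 4.73% of all 27025 promoters.

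**Figure D3:**
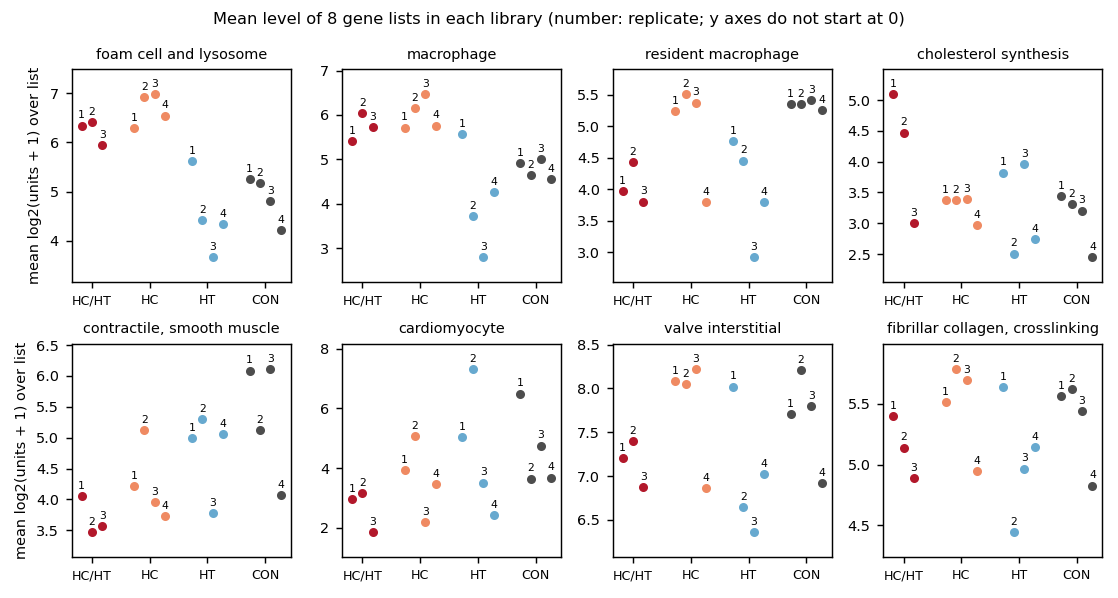
Mean log2(units + 1) over the members of 8 gene lists in each library, with the replicate number beside each point, for HC/HT, HC, HT and CON. Foam cell genes in HC/HT lay at 5.95 to 6.41 against 4.22 to 5.25 in CON, and resident macrophage genes at 3.80 to 4.43 in HC/HT against 5.25 to 5.42 in CON. CON replicate 4 was the lowest CON library in 7 of the 8 panels, the cardiomyocyte panel being the exception.

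The transcription factors Tbx5 and Osr1 and the Wnt genes Fzd2 and Wnt9a fell. Tbx5, a T-box factor of heart development, stood at 2.55, 0.980 and 2.45 units in HC/HT and at 10.9, 24.3, 6.86 and 32.6 units in CON (-2.74 ± 0.54, adjusted p 0.0179). Osr1, a zinc finger factor of heart septation and fibroblast progenitors, held 1.37, 0.196 and 2.84 units in HC/HT and 10.2, 5.68, 16.2 and 13.3 units in CON (-2.28 ± 0.54, adjusted p 0.0496). Neither overlapped, against 7.66% of all genes tested as lower. They were the 2 genes to pass of 22 tested valve and cardiac transcription factors, of which 20 had negative differences with a median of -0.69. Among all 15004 genes tested 10018 were negative, with a median of -0.20, and 0.32% passed as lower. Tcf21, a fibroblast factor, had a difference of -2.02 (adjusted p 0.164), Gata4 of -1.03 (adjusted p 0.213) and Sox9 of -0.70 (adjusted p 0.619).

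The Wnt receptor Fzd2 stood at 2.35, 2.65 and 3.33 units in HC/HT and at 25.9, 22.6, 9.31 and 6.66 units in CON (-2.13 ± 0.49, adjusted p 0.0449), and was the 1 gene of 26 Wnt genes tested to pass. The ligand Wnt9a, which is not on that list, held 0.980, 0.588 and 8.42 units in HC/HT and 18.1, 21.6, 11.1 and 8.62 units in CON (-2.55 ± 0.56, adjusted p 0.0416). HC/HT replicate 3 came close to CON replicate 4 in Wnt9a. Wnt9b, a ligand of valve endothelium, went the other way without passing, at 309, 234 and 148 units in HC/HT and 102, 86.0, 91.1 and 34.2 units in CON (1.69, adjusted p 0.164). The calls of Tbx5, Osr1, Fzd2 and Wnt9a all ended without HC/HT replicate 2 and without CON replicate 2. Those of the last 3 also ended without HC/HT replicate 1 or CON replicate 1 or 3, and that of Osr1 without CON replicate 4, with adjusted p values of up to 0.163 for Tbx5, 0.330 for Osr1, 0.337 for Fzd2 and 0.256 for Wnt9a.

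Igfbp5, Ecm2, Cytl1, Hmcn1, Pcdh18 and Fibin fell in HC/HT valves, a grouping made after their values were seen. The lists of valve interstitial, proteoglycan, matricellular, basement membrane and fibrillar collagen genes each held 0 genes that passed as lower. Igfbp5, which binds insulin-like growth factors, stood at 205, 155 and 685 units in HC/HT and at 1429, 2225, 850.3 and 859 units in CON (-2.30 ± 0.50, adjusted p 0.0427). Ecm2, a matrix protein with leucine-rich repeats, held 43.8, 32.1 and 62.1 units in HC/HT and 142, 281, 217 and 149 units in CON (-2.15 ± 0.39, adjusted p 0.00715). HC/HT replicate 3 was the highest HC/HT library in both genes and stayed below CON. Cytl1, a cytokine-like protein of cartilage and other connective tissue, averaged 99.1 ± 27.9 units in HC/HT and 382 ± 152 in CON (-2.10, adjusted p 0.025). Hmcn1, a giant protein of the extracellular matrix (-1.77), the cadherin Pcdh18 (-2.48) and the secreted protein Fibin (-2.75) fell as well. These 6 calls all ended without HC/HT replicate 2 or CON replicate 2, with largest adjusted p values from 0.101 for Pcdh18 to 0.337 for Hmcn1. That of Ecm2 ended also without HC/HT replicate 1, that of Cytl1 without CON replicate 3, those of Igfbp5 and Hmcn1 without HC/HT replicate 1 or CON replicate 1 or 3, and that of Igfbp5 without CON replicate 4. Fibin ended also without HC/HT replicate 3 or CON replicate 1, 3 or 4.

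The main collagens of the valve did not pass. Col1a1, the main chain of type I collagen, stood at 278, 306 and 284 units in HC/HT and at 381, 504, 385 and 330.4 units in CON, a log2 difference of -0.40 with a 95% interval from -1.19 to 0.39. Col3a1, of type III collagen, had a difference of 0.05 with an interval from -1.04 to 1.14. Of 23 fibrillar collagen and crosslinking genes, 0 passed with limma in either direction and 1 had an unadjusted p under 0.05, with 9 positive and 14 negative and a median of -0.11 that became 0.07 with median-of-ratios factors. That 1 gene was Col11a1, a minor fibril chain, at 0.392, 0.196 and 1.08 units in HC/HT and 3.72, 6.07, 3.13 and 4.21 units in CON (-1.91, adjusted p 0.0536). Periostin, Postn (-0.76), fibronectin, Fn1 (0.15), tenascin C, Tnc (0.71), and versican, Vcan (-0.09), had adjusted p values from 0.554 to 0.967.

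Growth factor and mineralisation genes of the fibrosis and calcification pathways did not pass either, apart from Pdgfb. Tgfb1, the main profibrotic ligand, stood at 9.99, 6.66 and 14.1 units in HC/HT and at 14.8, 16.0, 7.74 and 14.1 units in CON (-0.26, adjusted p 0.888). Tgfb3 (-1.39, adjusted p 0.176), the coreceptor Tgfbr3 (-1.29, adjusted p 0.145) and Bmp4 (-1.13, adjusted p 0.157) had negative differences. Runx2, the factor of bone formation, held 13.9, 12.6 and 14.1 units in HC/HT and 11.1, 6.27, 15.3 and 6.66 units in CON, which overlap (0.65, adjusted p 0.625). Of 13 osteogenic and chondrogenic genes tested, 0 passed with limma and 1 in each direction had an unadjusted p under 0.05, with Spp1 the higher one.

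**Figure D4:**
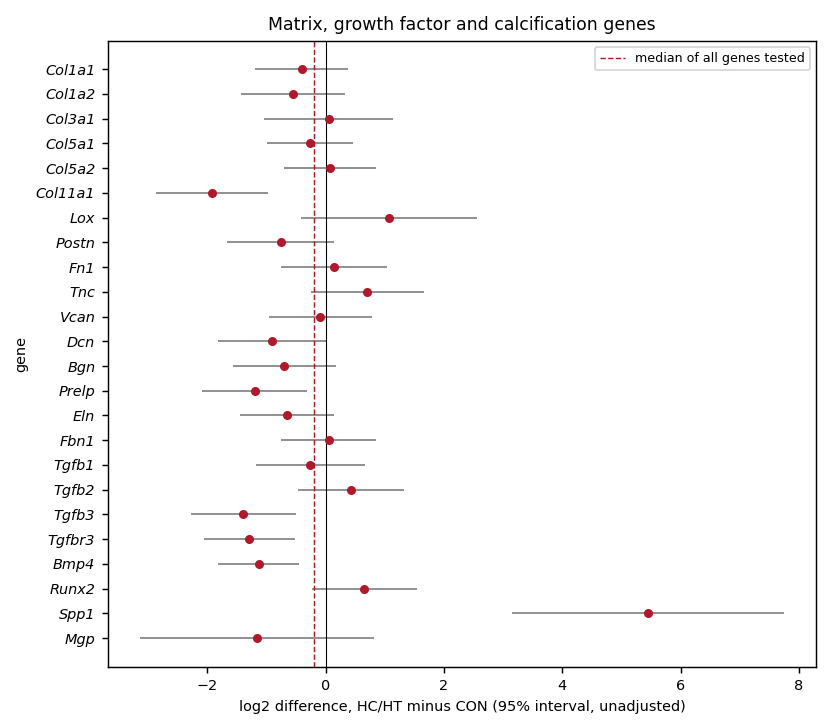
Log2 difference of 24 matrix, growth factor and calcification genes, HC/HT minus CON, with its 95% interval before adjustment, and a dashed line at the median of all genes tested, -0.20. The interval of Spp1, from 3.15 to 7.75, lay apart from the others, and that of Col1a1 ran from -1.19 to 0.39.

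Pdgfb, a growth factor that endothelium and macrophages release to recruit mural cells, stood at 105, 30.3 and 21.3 units in HC/HT and at 6.66, 5.29, 6.17 and 3.04 units in CON (3.09 ± 0.65, adjusted p 0.0472). HC/HT replicate 1 was the highest by far, and HC/HT replicate 3 was still above every CON library. It was the 1 gene to pass of 17 tested growth factors and receptors of the PDGF and FGF families, of which 13 had negative differences. That share was close to the one over all genes tested, where 10018 of 15004 were negative. Leaving out any library other than HC/HT replicate 3 ended its call, with an adjusted p of up to 0.292. Its receptor Pdgfrb had a difference of -0.86 (adjusted p 0.382).

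Of 18 endothelial markers, Clec14a passed as lower and 0 passed as higher. Clec14a, an endothelial lectin of vessel growth, stood at 6.07, 12.2 and 15.9 units in HC/HT and at 22.1, 45.2, 41.0 and 39.3 units in CON (-1.95 ± 0.37, adjusted p 0.012). Sdpr, the caveolar protein also called Cavin2 and not on that list, held 56.0, 31.1 and 39.8 units in HC/HT and 146, 183, 151 and 132 units in CON (-1.91 ± 0.35, adjusted p 0.00837). Neither overlapped between the groups. Cldn1, a tight junction protein also not on it, held 8.23, 10.2 and 9.01 units in HC/HT and 0.686, 0.784, 0.490 and 1.76 units in CON (2.29 ± 0.53, adjusted p 0.0472). The median of the endothelial markers was -0.15, or 0.06 with median-of-ratios factors. Cdh5, the endothelial cadherin, had a difference of 0.01 and Pecam1 of 0.30.

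Of 16 genes of endothelial activation, 12 had positive differences and 0 passed with limma, while 4 higher and 1 lower had an unadjusted p under 0.05. Among all genes tested 33.2% were positive, and 2.99% were higher and 8.4% lower at that p. Sele, the selectin that slows leukocytes on activated endothelium, stood at 36.1, 30.9 and 39.8 units in HC/HT and at 11.8, 12.1, 13.3 and 7.05 units in CON (1.59, adjusted p 0.17). Vcam1, the adhesion molecule for monocytes, had a difference of 0.88 (adjusted p 0.498). Edn1, the vasoconstrictor endothelin 1, held 99.4, 33.7 and 6.86 units in HC/HT and 9.99, 4.90, 9.11 and 5.39 units in CON (2.38, adjusted p 0.347), with HC/HT replicate 3 inside the CON range. The calls of Clec14a, Sdpr and Cldn1 ended without HC/HT replicate 2 or CON replicate 2, those of Clec14a and Cldn1 also without HC/HT replicate 1 or CON replicate 3, and that of Cldn1 without CON replicate 1. Their largest adjusted p over the omissions was 0.211, 0.119 and 0.320.

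Genes of the renin-angiotensin system did not pass, although HC/HT mice carry its human transgenes. Ace, which makes angiotensin II, stood at 232, 167 and 136 units in HC/HT and at 184, 203, 151 and 57.2 units in CON, which overlap (0.29, adjusted p 0.87). Mme, an endopeptidase that degrades natriuretic peptides and angiotensins, held 2.16, 5.09 and 7.54 units in HC/HT and 8.42, 12.8, 21.9 and 12.9 units in CON (-1.65, adjusted p 0.276). Of the 9 genes tested 7 had negative differences, against 10018 of all 15004. With limma 0 passed, while 4, all lower, had an unadjusted p under 0.05, against 8.4% of all genes tested as lower.

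The remaining called genes were mostly enzymes, transporters and receptors. Of the higher ones, Abcc3 exports organic anions and conjugates (1.97), Galnt6 starts the sugar chains of mucins (2.13), Cdk18 is a kinase related to the cell cycle kinases (1.92), Fxyd7 regulates the sodium pump (2.19) and Ptchd1 is a membrane protein related to the Hedgehog receptor (2.26). Sept3, a septin known from neurons (2.12), Tspan8, a tetraspanin (2.80), and the predicted gene 1300002K09Rik (2.17) completed the 22. Tspan8 stood at 24.0, 6.07 and 0.196 units in HC/HT and at 0.196, 0.196, 0 and 0.196 units in CON, so HC/HT replicate 3 was level with CON.

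Of the lower ones, Cbs starts transsulfuration of homocysteine (-2.42), Bche hydrolyses choline esters (-2.50), Adh1 oxidises alcohols and retinol (-2.26), Aldh5a1 oxidises succinic semialdehyde (-2.15), Sult1a1 sulfates phenols (-1.93), Dut clears dUTP (-1.81) and Trhde cleaves thyrotropin-releasing hormone (-2.05). Ion transport was represented by the potassium channel Kcnj5 (-2.28), the exchanger Slc24a3 (-2.20) and the bicarbonate transporter Slc4a4 (-1.76). Hormone receptors were the prolactin receptor Prlr (-2.20), the PACAP receptor Adcyap1r1 (-2.21) and the thyroid hormone receptor Thra (-1.62). Thra stood at 19.5, 12.8 and 15.0 units in HC/HT and at 60.0, 50.5, 59.0 and 46.9 units in CON, with no overlap and an adjusted p of 0.0328. Ppp1r1b (-2.15), Galnt16 (-2.13), Sept4 (-2.25), Stk32b (-1.91), Arhgap20 (-1.99), Fam181b (-1.99), Tmem100 (-1.74), the unannotated AK021325 (-2.03) and the 8 rows near 0 in both ApoE knockout groups were among the rest. Each gene of these last paragraphs lost its call in at least 3 of the 7 omissions, the near-0 rows apart. Adjusted p values without 1 library reached 0.419 for Stk32b, 0.377 for Ptchd1 and 0.359 for Tspan8, and Prlr lost its call without any 1 of the 7.

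The combined model was set beside each single model at these 70 genes. Of the 22 higher genes, 11 also passed as higher in HC/HT than in HT, and 7 of the 48 lower genes passed as lower, which were Apoe and 6 of the 8 near-0 rows. Over all genes, 0.32% passed as higher in HC/HT than HT and 0.0533% as lower. The higher ones were Cd5l, Gpnmb, Atp6v0d2, Acp5, Trem2, Abcg1, Cxcl1, Galnt6, Abcc3, Cdk18 and Pirb. Cd5l averaged 30.1 units in HC/HT, 38.3 in HC and 0.441 in HT, and Abcg1 56.6 in HC/HT, 73.1 in HC and 8.79 in HT. The count of 18 became 6 without HC/HT replicate 1 and 9 without HC/HT replicate 2.

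Against HC, 0 of the 70 genes passed with limma, and 0 of all 15004. An unadjusted p under 0.05 was held by 39 of the 70 and by 661 of all 15004. The 70 were chosen on the same HC/HT libraries, which raises their share. The smallest adjusted p was 0.152, for Trhde, at 1.44 units in HC/HT, 11.5 in HC, 5.19 in HT and 8.50 in CON on average. HC/HT had the lowest mean of the 4 groups in 43 of the 48 lower genes and the highest in 15 of the 22 higher genes, an order that the choice of genes on the HC/HT libraries partly sets. Lyve1 averaged 1.04 units in HC/HT, 15.2 in HC and 10.4 in HT, against 40.2 in CON. Mylk averaged 13.5 units in HC/HT, 30.7 in HC and 44.0 in HT, against 104 in CON. These comparisons share the HC/HT libraries, so they are not independent of each other. The numbers that open the column names are lower in every HC and HC/HT library than in every CON and HT library. Those names do not say what the numbers stand for. An effect of such an order cannot be told apart from the ApoE knockout.

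**Figure D5:**
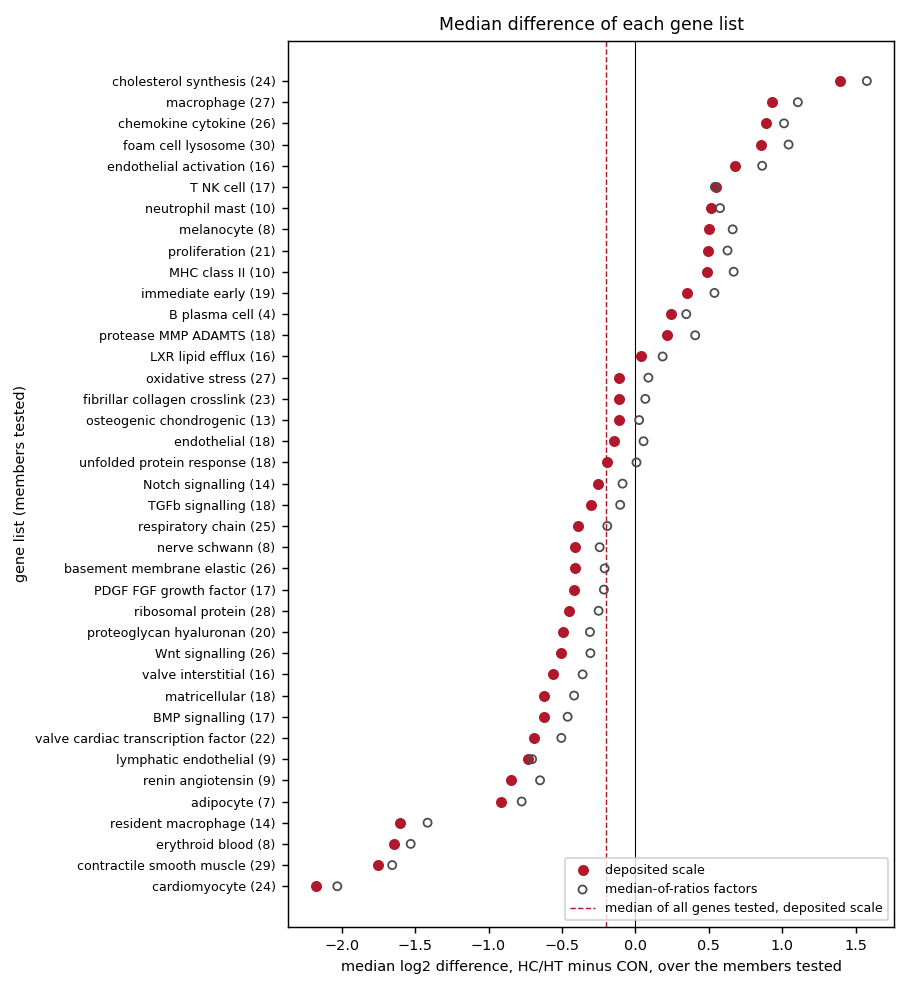
Median log2 difference, HC/HT minus CON, over the tested members of 39 gene lists, on the deposited scale (filled) and with median-of-ratios factors (open), with a dashed line at the median of all genes tested. Cholesterol synthesis (1.40) and macrophage genes (0.93) had the highest medians, and cardiomyocyte (-2.18) and contractile genes (-1.75) the lowest.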

How the data were processed

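Aortic valve RNA of mice was sequenced, and 15 of 16 libraries were used here. Per the labels' protocols, Nugen Ovation RNA-Seq v2 made cDNA from 1 ng of total RNA, with KAPA hyper prep libraries. Bowtie 1.0.1, SAMtools 0.1.9, FastQC 0.11.2 and edgeR (no version) with the build mm10 are named per the submitters' processing notes. How counts were normalised is not stated in the labels or these notes. The values deposited by the authors are a score, normalised counts rounded to whole numbers for 20992 rows, with nearly equal totals, so depth is unknown and no counting interval is given. 1 unnamed column of values was not used. Of the row names 17628 matched a current symbol, 1087 an older one and 2277 none.

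Values were multiplied by 0.0979537 (units). The 15004 genes that reached 1 unit in 4 or more libraries were fitted in R 4.3.3 with limma 3.58.1 (eBayes with trend and robust after lmFit and contrasts.fit) on log2(units + 1), with group and sex as terms and all 15 libraries, and adjusted by Benjamini-Hochberg over all genes tested, two-sided, at 0.05. The pseudocount shrinks the differences of low genes. The fit was tested on simulated counts with the same dispersion for every gene and no differences between libraries in composition or sex. That test does not cover such differences in these data. Single values were compared by exact permutation tests (SciPy 1.17.1).

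Genes named are the 15 largest differences per direction among calls without overlap, all list members called, up to 4 members per list by p, and a fixed set that includes Apoe, Col1a1, Tgfb1, Runx2 and Spp1, 176 in all. Other calls are named for completeness, except that some genes are not reported here. The 39 lists and the members were chosen with earlier results of these data known, and lists get counts and medians, no test. The labels number the libraries as replicates and give each a sex, and the design text gives 4 per group, so libraries were treated as separate mice, although neither says whether a library held 1 valve or a pool. Alternatives were scaling (median-of-ratios, quantile, without the 4 most abundant rows), pseudocounts of 0.25 and 4, no filter or one at 5 units, no sex term, a replicate block, array weights, eBayes without trend and robust, only these 2 groups, a threshold of 0.1, and leaving out each library. Promoters are RefSeq's (GRCm38.p6), and positions are those of mm10.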

Additional observations from a re-analysis of the deposited data

Results flagged for a closer look

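Among 46 genes and 39 list means checked in the CON group for 1 library far from the other 3, 3 stood apart, with the gap to the nearest library divided by the group's range above Dixon's 95% critical value for 4 samples. Chance gives about 1 in 20 groups. Agt had a ratio of 1.000, since CON replicate 3 was at 0.196 units and the other CON libraries at 0. The mean log2 level of the T and NK cell list had a ratio of 0.920, with CON replicate 4 at 2.40 and the others at 1.44 to 1.52. The mean log2 level of the unfolded protein response list had a ratio of 0.896, with CON replicate 4 at 4.52 and the others at 5.41 to 5.51. HC/HT has 3 libraries and was not checked.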

How the results depend on the processing

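Against 22 higher and 48 lower genes, the higher count was 59 with median-of-ratios factors, 59 with quantile normalisation and 63 with the scaling that leaves out the 4 most abundant rows, where the lower counts were 50, 47 and 40. Higher and lower counts were 5 and 14 with no filter, 9 and 17 with the filter at 5 units, 130 and 596 with array weights, 56 and 95 with only the HC/HT and CON libraries, 43 and 89 at an adjusted p under 0.1, and 10 and 40 with a pseudocount of 0.25. Leaving out 1 library gave 1 to 50 higher and 5 to 93 lower genes. The causes of these changes were not tested. Of the 70 calls, 53 were kept with median-of-ratios factors, 15 with no filter and 70 with array weights, and all 70 kept their sign in each alternative that tested them, the filter at 5 units leaving some out. Over all named genes, 3540 results stayed on their side of the threshold, 529 lost it and 133 gained it. The 0 genes that also passed against HC became 2 with array weights and 0 to 1 when 1 library was left out, and the 18 against HT became 8 with no filter and 6 to 22 when 1 library was left out.

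With a replicate block the counts were 57 higher and 165 lower, with 67 of the 70 kept, and 1 gene passed against HC. The labels do not say that the numbers pair the mice. Deviations of same-numbered libraries correlated at 0.127, 0.072 and 0.195. HC/HT replicates 1 and 3 each correlated best with the CON library of their own number, and HC/HT replicate 2 with CON replicate 1 (0.152). Whether libraries of the same number were handled together was not tested. Depth is unknown, and a value of 0.196 or less is a deposited 2 or fewer, so genes near that level carry little precision.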

Other observations

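Of 20 proteoglycan and hyaluronan genes tested, 17 had negative differences, where 33.2% of all genes tested had positive ones. Their median was -0.49, against -0.20 for all genes tested, and 0 passed with limma while 4 had an unadjusted p under 0.05. Those 4 were lower, as were 8.4% of all genes tested at that p. Ogn, the proteoglycan osteoglycin, stood at 17.7, 20.3 and 18.1 units in HC/HT and at 132, 140, 200 and 81.9 units in CON, with no overlap (-2.92 ± 1.03, adjusted p 0.316). Dpt, a matrix protein of fibroblasts, held 329, 389 and 407 units in HC/HT and 1181, 1793, 1066 and 680 units in CON (-1.83, adjusted p 0.316). Sparcl1, a matricellular protein, held 13.3, 2.45 and 13.5 units in HC/HT and 47.6, 83.8, 65.8 and 18.5 units in CON (-2.54, adjusted p 0.209). BMP genes were negative in 16 of 17. Their median of -0.63 became -0.46 under median-of-ratios scaling, and 0 passed with limma while 4 lower ones had an unadjusted p under 0.05. TGF-beta genes were negative in 12 of 18, a share close to that of all genes tested, and their median of -0.30 was -0.10 under median-of-ratios scaling.

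Oxidative stress genes were split, with 12 positive and 15 negative of 27 and 0 past the limma threshold, while 3 in each direction had an unadjusted p under 0.05. Nox4, an NADPH oxidase of mesenchymal cells, stood at 14.7, 15.5 and 22.7 units in HC/HT and at 56.9, 55.4, 108 and 24.4 units in CON (-1.57, adjusted p 0.195). The groups did not overlap. All 10 MHC class II genes tested had positive differences, from 0.16 to 0.91, and 3 did not overlap, against 2.89% of all genes tested as higher. Of these 10 genes 0 passed with limma and 0 had an unadjusted p under 0.05. Over all 15004 genes tested 4986 were positive and 10018 negative. Ribosomal protein genes were negative in 25 of 28 (median -0.45, or -0.25 with median-of-ratios factors) and respiratory chain genes in 21 of 25 (median -0.39, which was 0.10 without HC/HT replicate 3). Proliferation genes were positive in 14 of 21, with a median of 0.49, which fell to 0.06 without HC/HT replicate 1.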
